A study of Mus musculus with 2 samples.

Results

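Phosphate transfer between creatine, ATP and AMP was described through 9 genes: Ckm, Ckb, Ckmt1 and Ckmt2, the creatine kinases; Slc6a8, the creatine transporter; Ak1, an adenylate kinase; Ampd1 and Ampd3, AMP deaminases; and Adssl1, an adenylosuccinate synthase. The genes were chosen by symbol, without a measured value in the rule but with earlier results of these data known. All 9 matched 1 gene each of the 55536 in the gene tables. The RNA came from gastrocnemius, the large calf muscle, of adult female mice of 8 to 10 months, labelled as a cross of 5xFAD with CAST. 5xFAD carries mutated human transgenes driven by the Thy1 promoter, which is active in neurons, and models Alzheimer's disease, whereas CAST is a wild-derived inbred strain. The labels do not say whether these animals carried the transgenes, name no treatment, and give both tissue samples 1 donor identifier beside biological replicate numbers 1 and 2. Both samples form 1 group with no control, so the data give levels in this tissue and how far 2 libraries differ, which may be technical if the tissue came from 1 animal.

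A working muscle fibre can spend ATP faster than it can be made at the site of use. Creatine kinase moves phosphate between ATP and creatine, so that phosphocreatine acts as a store and as a carrier between mitochondria and myofibrils. Adenylate kinase recovers ATP from a pair of ADP molecules and leaves AMP, which AMP deaminase turns into IMP. Adenylosuccinate synthase and adenylosuccinate lyase rebuild AMP from IMP, and the loop is called the purine nucleotide cycle. Fast glycolytic fibres are known for high activity of these enzymes.

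Total expected counts, the reads assigned to each gene by a statistical model, were 35594289 in library 1 and 34541905 in library 2. Levels are given in TPM, transcripts out of a fixed library total after correction for transcript length, from the gene tables of a first quantifier, and a second quantifier's transcript tables were used beside it. All 8 fast-fibre markers were detected at TPM of at least 1 in both libraries, with a summed TPM of 54022 and 62676, against 1253 and 1710 for the 7 slow-fibre markers. Detected markers numbered 0 of 5 for epithelium, 1 of 5 for heart, 2 of 5 for neurons, 3 of 5 for smooth muscle, 4 of 5 for Schwann cells, 5 of 5 for endothelium and 5 of 5 for red cells. Of the 9 genes, 8 were detected in both libraries, against 19.2% of all genes and 44.5% of the 22015 nuclear protein-coding genes. The plot of levels by library shows the 9 genes in order, from Ckm down to Ckmt1, the only one below the threshold.

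**Figure D1:**
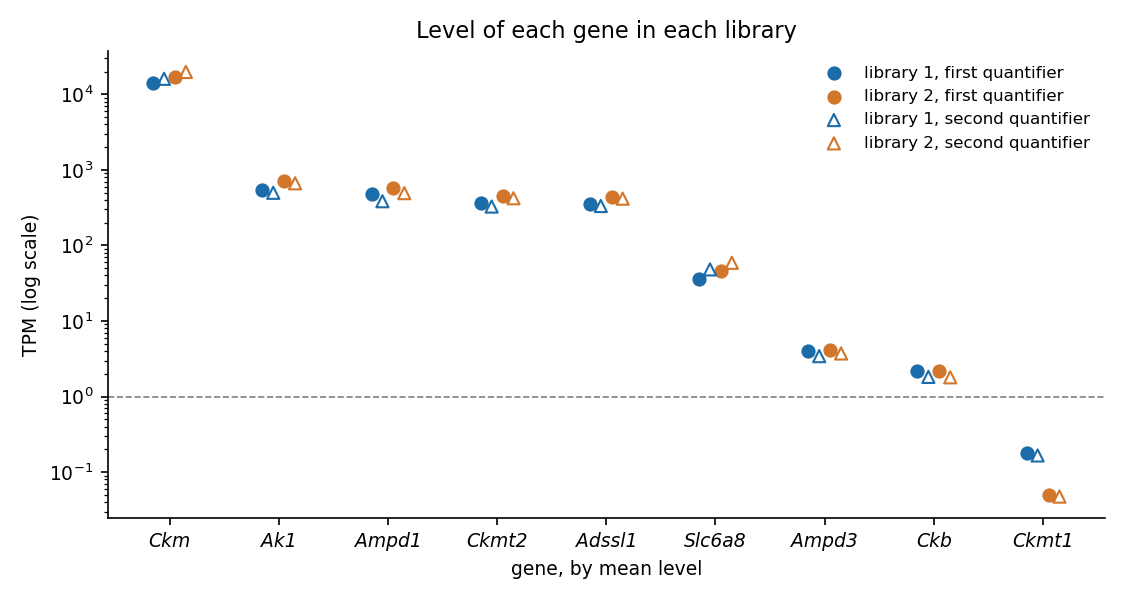
Level of each gene in TPM on a log axis, with circles for the first quantifier, triangles for the second and colour for the library; the dashed line marks 1 TPM. Ckm stood at 14267 and 16993 TPM, 5 genes lay between 35.5 and 721, Ampd3 and Ckb lay between 2.16 and 4.17, and Ckmt1 was at 0.18 and 0.05.

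Ckm, the cytosolic creatine kinase of muscle that also sits at the M-line of the sarcomere, was the dominant transcript of the set. The gene (ENSMUSG00000030399.2, chr7:19404776-19422841, plus strand, mm10) held 427472 counts in library 1 and 435506 in library 2. Its level was 14267 TPM in library 1 and 16993 in library 2 (15630 ± 1928, SD, n = 2), second among nuclear protein-coding genes in each. This was 3.65% and 3.81% of all nuclear protein-coding TPM. Acta1, skeletal actin, lay next above at 16962 and 19000 TPM, and Tnnt3, fast troponin T, next below at 14057 and 16206. The order was the same in each library, but the range of Ckm over the libraries overlapped that of each neighbour. Per length, Ckm exceeded Myh4, the myosin of the fastest fibres, by 1.34 times in library 1 and 1.38 times in library 2, a direction that turns with the transcript length assumed for Ckm, as given with its transcripts.

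Ckmt2, the sarcomeric creatine kinase of the mitochondrial intermembrane space, was the other abundant creatine kinase. It lies at chr13:91853387-91876885 (ENSMUSG00000021622.3) on the minus strand and stood at 361 and 455 TPM (408 ± 66.2, SD, n = 2), rank 98 by mean level. Ckmt1, the ubiquitous mitochondrial form (ENSMUSG00000000308.14, chr2:121357714-121363737, plus strand), received 4 counts in library 1 and 2 in library 2. Exact Poisson 95% intervals of those counts run from 1.09 to 10.2 and from 0.242 to 7.22, and the TPM values of 0.18 and 0.05 are too shallow to be set apart. Ckmt2 held 99.95% and 99.99% of the TPM of the mitochondrial pair. The mitochondrial kinase of this muscle was therefore counted as Ckmt2 in nearly all of its reads.

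Ckb, the cytosolic creatine kinase of brain and smooth muscle (ENSMUSG00000001270.9, chr12:111669361-111672338, minus strand), was present at a low level. It received 90 and 79 counts, with exact Poisson 95% intervals of 72.4 to 111 and 62.5 to 98.5, and stood at 2.16 and 2.19 TPM (2.18 ± 0.0212, SD, n = 2). Ckm was 6605 times as high per length in library 1 and 7760 times in library 2. Markers of cells known to use Ckb were low as well: Acta2 of smooth muscle stood at 13.4 and 14.8 TPM, Tagln at 11.9 and 14.7 and Myh11 at 6.32 and 6.46, while the summed TPM of 5 neuronal markers was 2.52 and 2.78. Which cells gave the Ckb reads was not tested, and in bulk tissue fewer cells of a type and less RNA per cell cannot be told apart. Within the family Ckm held 97.4 ± 0.0953% of TPM and Ckmt2 2.54 ± 0.0975% (SD, n = 2), and the Ckm to Ckmt2 ratio was 39.5 in library 1 and 37.4 in library 2. The ratios of Ckm to Ckb and Ckmt2 use its deposited level. Over other transcript lengths, given with its transcripts, that level was up to 2.68 and 2.71 times lower. RNA of the genes for cytosolic creatine kinase was thus in large excess over RNA of the genes for the mitochondrial forms in each library.

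The 4 kinases are related in sequence. Over the coding sequences, Ckm and Ckb shared 75.9% of aligned bases, Ckmt1 and Ckmt2 71.6%, and Ckm and Ckmt2 66.2%. The stretch around the active-site cysteine, codon 283 of Ckm and Ckb and codon 317 of the mitochondrial forms, is shown as the signature of the family. It covers 18 codons of the GENCODE M21 transcripts, 5′ to 3′, with the cysteine codon at bases 16 to 18, and capitals mark bases that differ from Ckm.
Ckm: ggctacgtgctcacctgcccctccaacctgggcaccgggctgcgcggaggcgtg
Ckb: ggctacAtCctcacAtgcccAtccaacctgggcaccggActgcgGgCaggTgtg
Ckmt2: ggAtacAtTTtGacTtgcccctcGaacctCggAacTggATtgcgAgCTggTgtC
Ckmt1: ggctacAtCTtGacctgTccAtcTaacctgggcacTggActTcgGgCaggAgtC
Ckb differs from Ckm at 8 of these 54 bases, Ckmt2 at 17 and Ckmt1 at 14, and each of the 3 differs at 2 of the 18 encoded residues. Windows of 100 bases that occur in another gene's transcripts numbered 0 for 8 of the 9 genes. Ckb was the exception, with 151 of 3329 windows (4.54%) shared with Gm12892, a processed pseudogene on chromosome 4 that is listed at 0 counts in both libraries. At 31 bases 17.5% of Ckb windows were shared with other genes, 9 windows were common to Ckmt1 and Ckmt2, and no other of the 9 genes exceeded 1.20%.

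**Figure D2:**
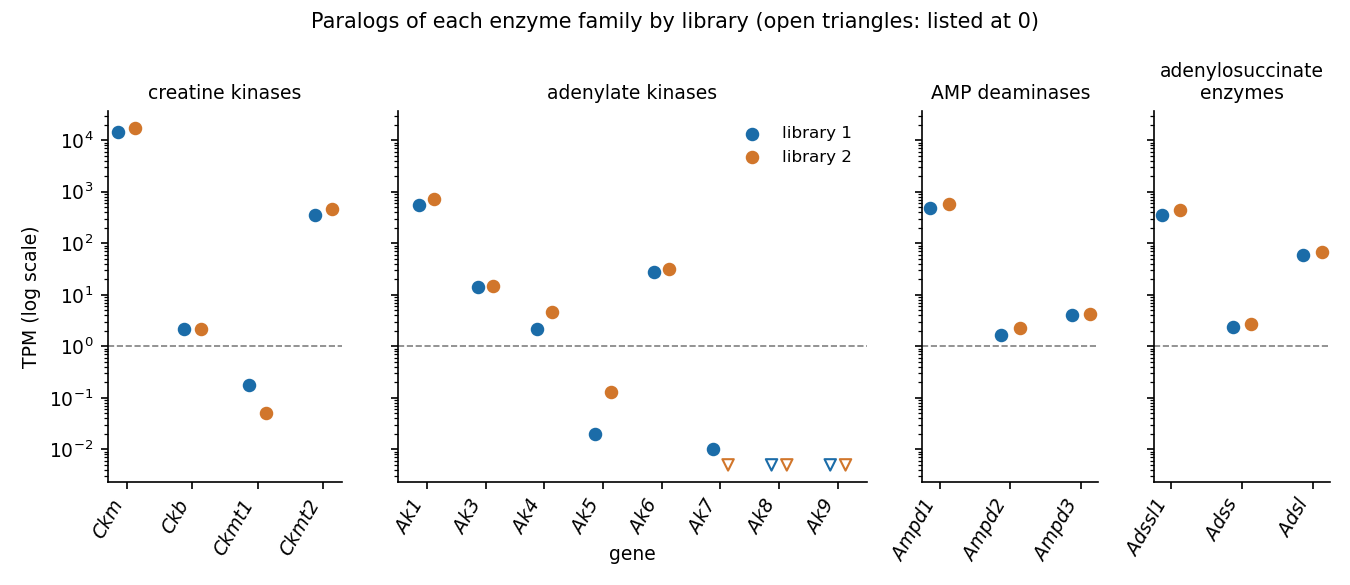
TPM of the genes named for the 4 enzyme families on a log axis, in library 1 and library 2; open triangles stand for values listed at 0 and the dashed line marks 1 TPM. In each family 1 gene stands far above its paralogs shown in both libraries: Ckm, Ak1, Ampd1 and Adssl1. Adsl, drawn beside Adssl1 and Adss, is the lyase of the next step and not a paralog, and Adssl1 was 6.05 and 6.39 times as high.

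The reads of Ckm were spread over 3 annotated transcripts, and none of them joins exon 2 to the leading 3′ end. Ckm-203 is the full coding transcript, with 8 exons, 2742 bases and 1143 coding bases, and its last exon runs to position 19422841. Ckm-201 has 7 exons and 1235 bases, ends at 19421584, and lacks exon 2, a 212-base exon at chr7:19414119-19414330 that holds the start codon. Ckm-202 is a non-coding model of 5 exons and 671 bases that starts at 19404776, holds exon 2 and stops at 19415533. The first quantifier gave Ckm-201 59.3% and 56.1% of Ckm TPM, Ckm-202 36.8% and 39.7%, and Ckm-203 3.87% and 4.20%. In the second quantifier the same transcripts held 53.1% and 50.3%, 46.4% and 49.2%, and 0.474% and 0.527%. Transcripts with exon 2 thus held 40.7% and 43.9% of Ckm TPM, most of it in the non-coding model. By counts they held 31.7% and 34.6%, with 44306 and 49596 of 135569 and 150813 counts on the coding Ckm-203. The coding part of exon 2 is printed because the leading transcript lacks it. Its 193 bases (chr7:19414138-19414330, plus strand, mm10, GENCODE M21) open with the start codon, in capitals.
Ckm exon 2: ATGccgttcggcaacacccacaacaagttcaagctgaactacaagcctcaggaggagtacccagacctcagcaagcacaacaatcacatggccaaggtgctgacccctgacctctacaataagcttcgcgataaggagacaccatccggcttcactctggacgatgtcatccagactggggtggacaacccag
No annotated transcript joins exon 2 to the 3′ end of Ckm-201. Such a chain of exons would be 1485 bases long, whereas the length behind the deposited Ckm level follows from the shares of the 3 models of 1235, 671 and 2742 bases. Dividing the Ckm counts by the length of that chain, a setting added after the data were seen, with other genes left as deposited, gave 10151 and 11958 TPM (11055 ± 1277, SD, n = 2). That is 1.41 and 1.42 times below the deposited level and rank 6 and 7 among nuclear protein-coding genes, and below Myh4 at 10634 and 12336 TPM. Over the full length of Ckm-203, also added later, Ckm came to 5322 and 6269 TPM, 2.68 and 2.71 times below the deposited level and rank 11 and 12. Ckm held 96.4% of creatine kinase TPM with the 8-exon chain and 93.4% with Ckm-203. Which transcripts were present in the muscle was not tested, since the tables hold no reads across exon junctions.

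**Figure D3:**
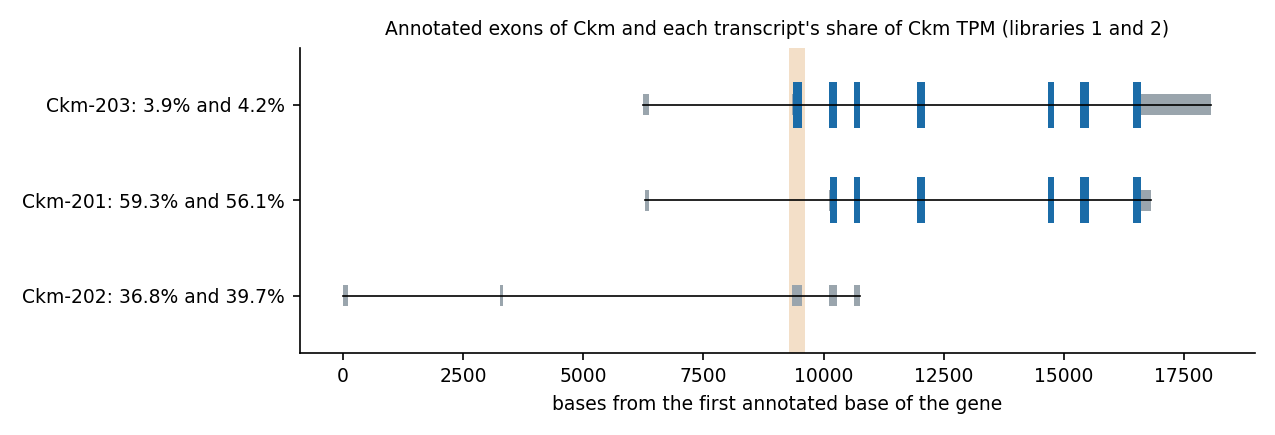
Exons of the 3 annotated Ckm transcripts by distance in bases from the first annotated base of the gene; tall blue blocks are coding, low grey blocks non-coding, the shaded band marks exon 2, and the labels give each transcript's percent of Ckm TPM in libraries 1 and 2. Ckm-201, the leading transcript, skips the shaded exon, which Ckm-202 and Ckm-203 hold.

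Slc6a8 imports creatine from the blood across the plasma membrane together with sodium and chloride. The gene (ENSMUSG00000019558.14, chrX:73673150-73682502, plus strand) stood at 35.5 and 45.4 TPM (40.4 ± 7.03, SD, n = 2), from 3659 and 3937 counts, and lay between Ank3 and Rab5b in level. Creatine synthesis was represented at lower levels. Gamt, which makes creatine from guanidinoacetate, stood at 7.29 and 11.1 TPM, and Gatm, which makes guanidinoacetate, at 1.34 and 2.08. Slc6a8 was 4.86 and 4.08 times as high as Gamt and 26.5 and 21.8 times as high as Gatm in libraries 1 and 2. The transporter therefore exceeded both enzymes of synthesis in each library, with no overlap of the ranges. Slc6a8 has 13 annotated transcripts, and their shares were not settled: the first quantifier placed 53.7% and 47.5% of TPM on Slc6a8-201 and 34.9% and 42.8% on Slc6a8-203. In the second quantifier Slc6a8-213, a 537-base model with no annotated coding end, held 30.5% and 25.2% beside 27.8% and 27.1% for Slc6a8-201, and the gene level was 48.2 and 58.9 TPM.

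Ak1, the cytosolic adenylate kinase of muscle, was the second most abundant of the 9 genes. It lies at chr2:32621758-32635058 (ENSMUSG00000026817.14) on the plus strand and stood at 543 and 721 TPM (632 ± 126, SD, n = 2), from 31674 and 35462 counts. Library 2 was the higher, and Ak1 had the widest relative spread of the 6 genes above 5 TPM, 19.9% of its mean. Cox6a2, a muscle subunit of cytochrome oxidase, and Rplp1, a ribosomal protein, were its neighbours in level. Among Ak1 to Ak9 it held 91.5 ± 0.826% of TPM (SD, n = 2). Ak6, a nuclear protein, followed at 4.36 ± 0.526% and Ak3 of the mitochondrial matrix at 2.12 ± 0.341%. Ak4, another matrix protein, stood at 2.21 and 4.65 TPM, while Ak5, Ak7, Ak8 and Ak9 were below 1 TPM in both libraries and Ak8 and Ak9 were listed at 0. Of the 9 adenylate kinases 5 were detected, and the cytosolic enzyme was the main one.

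The start of the Ak1 transcript was assigned differently by the quantifiers. Ak1-202 starts at position 32625437 and Ak1-203 at 32621758, and both carry the same coding length of 582 bases. Ak1-202 held 97.1% and 93.4% of Ak1 TPM in the first quantifier but 56.2% and 42.4% in the second, where Ak1-203 held 41.5% and 54.4%. The gene total was 497 and 663 TPM in the second quantifier. The share of each first exon is therefore uncertain here.

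Ampd1, the AMP deaminase of skeletal muscle (ENSMUSG00000070385.12, chr3:103074014-103099720, plus strand), was close to Ak1 in level. It stood at 484 and 582 TPM (533 ± 69.5, SD, n = 2), from 27325 and 27763 counts. Ak1 was 1.12 times as high in library 1 and 1.24 times in library 2, the same order in each, but the ranges of the pair over the libraries overlapped. In the second quantifier the ratios were 1.29 and 1.35, and the ranges did not overlap. Ampd1 lay beside Myh2, the myosin of type 2A fibres, and Atp5g1, a subunit of ATP synthase. It held 98.9 ± 0.0397% of the TPM of the 3 AMP deaminases (SD, n = 2). Ampd2, the widely expressed form, stood at 1.63 and 2.27 TPM.

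Ampd3, the deaminase of red cells (ENSMUSG00000005686.17, chr7:110768206-110812405, plus strand), was near the low end. It received 414 counts in library 1 and 328 in library 2 and stood at 4.00 and 4.17 TPM (4.09 ± 0.120, SD, n = 2). Ampd1 was 121 and 140 times as high. The TMM-scaled count ratio of library 2 over library 1 was −0.30 on the log2 scale, with an exact binomial 95% interval of −0.51 to −0.08 for counting error. It was −0.31 under DESeq2 size factors, −0.37 under spike-in scaling, and −0.29 both by library total and by second quantifier counts. The TPM ratio alone was above 0, at 0.06, on a scale where the median of the 6685 genes tested was 0.17. A list of 6 genes of muscle atrophy was higher in library 1 in 6 of 6 on the count scale, with a median log2 ratio of −0.76 and a summed TPM of 472 and 294. The list was chosen with earlier results of these data known, so its shared direction is no test. Of its genes, 2 had a log2 ratio of −1 or below, against an absolute ratio of at least 1 in 33 of 6685 genes (0.494%). Trim63 and Fbxo32, muscle ubiquitin ligases, stood at 254 and 138 TPM and at 149 and 103, and the part of this difference in the Ampd3 counts was not tested. Red-cell markers were detected in 5 of 5, with a summed TPM of 225 and 236. Ampd3 also overlaps Rnf141 on the other strand, which received 800 and 836 counts. The library kit keeps strand, but the sources used here do not give whether the counting used it, so the Ampd3 value is uncertain.

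Adssl1, the adenylosuccinate synthase of muscle (ENSMUSG00000011148.14, chr12:112620045-112641360, plus strand), was close to Ckmt2 in level. It stood at 355 and 439 TPM (397 ± 59.0, SD, n = 2), from 18166 and 19361 counts, at rank 100. Adss, the form of other tissues, stood at 2.36 and 2.71 TPM, and Adssl1 held 99.4 ± 0.0325% of the pair (SD, n = 2). Adsl, the lyase of the next step stood at 58.8 and 68.6 TPM. Adssl1 was 6.05 and 6.39 times as high as Adsl. Along the cycle the order was Ampd1, Adssl1, Adsl in each library, and Ampd1 exceeded Adssl1 by 1.36 and 1.33 times. In the second quantifier Ampd1 exceeded Adssl1 by 1.16 and 1.18 times, and the ranges of that pair over the libraries overlapped.

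Short alternative exons were counted in both enzymes of the cycle. Ampd1-201, with 16 exons, held 76.4% and 74.1% of Ampd1 TPM, and Ampd1-203, a 5-exon model that lacks the 12-base exon 2, held 11.5% and 14.0%. The second quantifier put these at 91.6% and 85.2%, and at 4.23% and 8.29%. Ampd1-203 is incomplete at its coding end, so its share stands for the start of the gene only. Adssl1-201 held 76.7% and 76.1% of Adssl1 TPM, and Adssl1-202, whose exon 5 starts 69 bases earlier, held 22.9% and 23.2%. The second quantifier gave Adssl1-202 20.4% in each library, so the minor form of Adssl1 was placed at a like share in all 4 estimates. Both inserts keep the reading frame and are shown with the neighbouring exon bases of the GENCODE M21 transcripts, with the insert in capitals. The Ampd1 insert lies at chr3:103075407-103075418 and the Adssl1 insert at chr12:112633000-112633068, both on the plus strand of mm10.
Ampd1 exon 2: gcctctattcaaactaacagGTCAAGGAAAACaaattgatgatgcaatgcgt
Adssl1 exon 5 extension: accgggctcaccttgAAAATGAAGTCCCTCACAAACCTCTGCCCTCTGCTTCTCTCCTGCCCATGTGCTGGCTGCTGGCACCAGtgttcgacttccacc

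**Figure D4:**
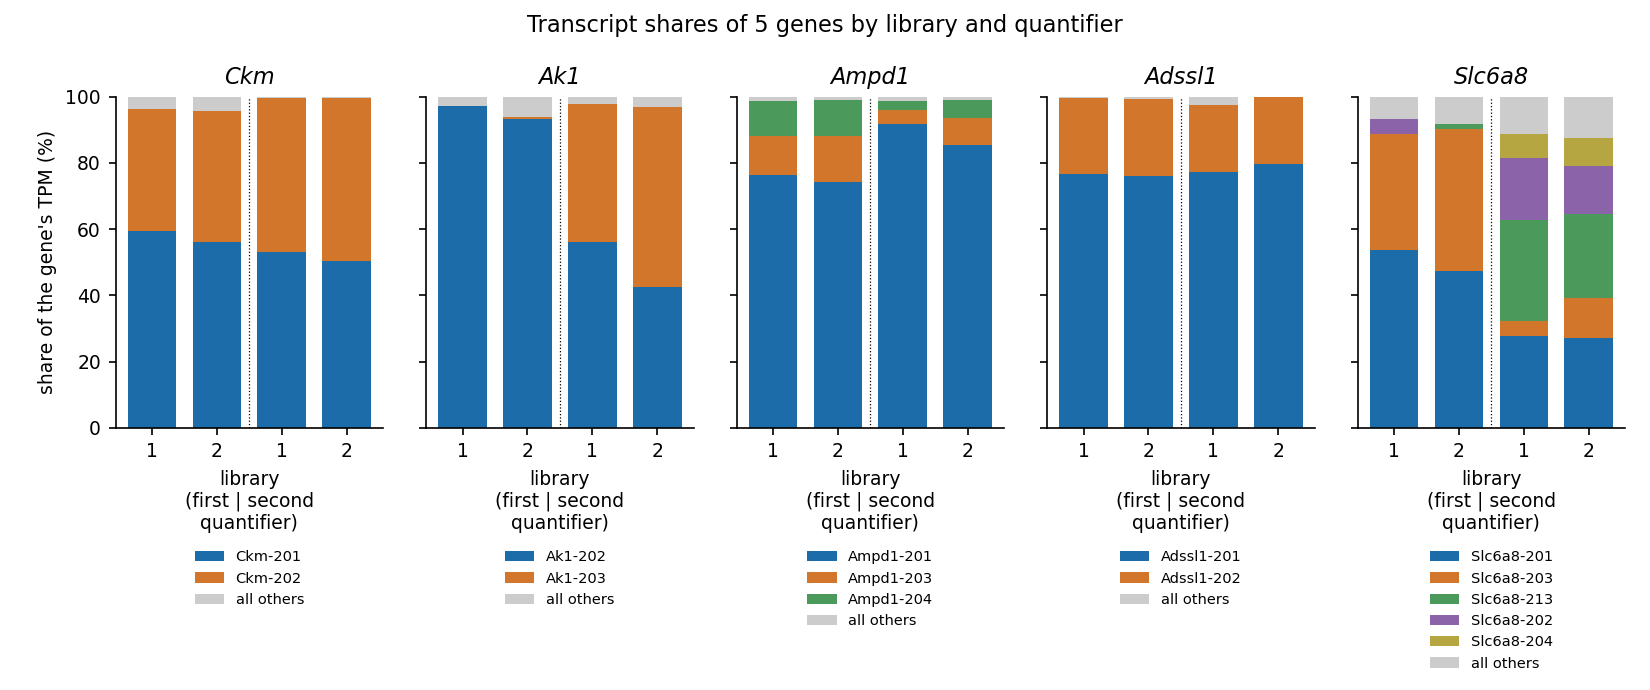
Percent of each gene's TPM held by its transcripts, for Ckm, Ak1, Ampd1, Adssl1 and Slc6a8, with library 1 and 2 of the first quantifier left of the dotted line and of the second quantifier right of it; grey stands for all other transcripts. Adssl1 looks alike in the 4 columns, whereas the shares of Ak1 and Slc6a8 differ most between the quantifiers.

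In order of level, Ckm stood alone, 26.3 and 23.6 times above Ak1. These multiples use the deposited Ckm level and are smaller over the longer transcript lengths tried for Ckm. Ak1, Ampd1, Ckmt2 and Adssl1 lay within a narrow band from 355 to 721 TPM. In that band the ranges of Ak1 and Ampd1 overlapped, as did those of Ckmt2 and Adssl1, while Ampd1 exceeded Ckmt2 by 1.34 and 1.28 times. The second quantifier placed Ak1 at 497 and 663 TPM and Ampd1 at 384 and 492, with no overlap of the ranges. There the range of Ampd1 did overlap that of Ckmt2, at 327 and 421 TPM, though Ampd1 was the higher in each library. For Ckmt2 and Adssl1 the order in the second quantifier changed between the libraries. Adssl1 was the higher in library 1, at 332 against 327 TPM, and Ckmt2 in library 2, at 421 against 416. Slc6a8 followed at 10.0 and 9.66 times below Adssl1, and Ampd3, Ckb and Ckmt1 came last, with Ampd3 1.85 and 1.90 times above Ckb and Ckb 12 and 43.8 times above Ckmt1, whose 4 and 2 counts leave that ratio imprecise. Together the 9 genes accounted for 4.10% and 4.31% of nuclear protein-coding TPM (4.21 ± 0.148%, SD, n = 2), of which Ckm made up 88.9% and 88.3%. By counts, which are not corrected for length, their share was 1.97% and 2.06%.

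The nearest genes in level to Ckmt2 and Adssl1 included subunits of the respiratory chain and of ATP synthase. Ckmt2 lay between Srl, a sarcoplasmic reticulum protein, and Ndufc1, of respiratory complex I, and Adssl1 between Ndufc1 and Atp5o, of ATP synthase. Slc25a4, the muscle exchanger of ADP and ATP at the inner mitochondrial membrane, stood at 1068 and 1159 TPM, and Ckmt2 was 0.338 and 0.393 times as high. Vdac1 and Vdac3, outer membrane pores, stood at 477 and 569 TPM and at 191 and 222. In that exchange list 5 of 6 genes were detected. Lower in the order, Ampd3 lay beside Arhgap31 and Coasy, and Ckb beside Soat1 and Helb.

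Other routes of AMP and of nucleotide phosphate were measured at lower levels than Ak1, Ampd1, Ckmt2 and Adssl1. Nt5c1a, the cytosolic nucleotidase that removes phosphate from AMP, stood at 15.7 and 17.8 TPM, with 2 of 4 genes of its list detected. Nt5c2 was at 3.40 and 2.58 TPM, and Nt5e, the cell-surface form, was below 1. Nme2, a nucleoside diphosphate kinase, stood at 274 and 300 TPM, above Guk1 at 13.5 and 16.3 and Nme6 at 10.9 and 14.1, and all 7 of these kinases were detected. For purine salvage and breakdown, 5 of 6 genes were detected, led by Adk, adenosine kinase, at 38.8 and 40.7 TPM, Xdh, xanthine dehydrogenase, at 23.9 and 20.4, and Aprt at 18.4 and 19.6. As users of ATP, Atp2a1, the fast calcium pump, stood at 11592 and 12986 TPM and Myh4 at 10634 and 12336, and Pvalb, a calcium buffer of fast fibres, at 4621 and 6318.

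The libraries were also compared gene by gene. Counts were scaled by TMM, the trimmed mean of M values, and a gene was called apart at an absolute log2 ratio of at least 1, mean TPM of at least 5 and a summed count of at least 100. Of the 9 genes 6 passed these filters and 0 were apart, against 33 of 6685 genes (0.494%). At a 1.5-fold ratio 0 of the 6 were past it, against 157 genes (2.35%). The log2 ratios of library 2 over library 1 were 0.07 for Ckm (exact binomial 95% interval 0.06 to 0.07), 0.16 for Ckmt2 (0.13 to 0.19), 0.15 for Slc6a8 (0.08 to 0.21), 0.20 for Ak1 (0.18 to 0.22), 0.06 for Ampd1 (0.04 to 0.09) and 0.13 for Adssl1 (0.10 to 0.16). All 6 were above 0 under this scaling, though not Ckm and Ampd1 under spike-in scaling, and their median was 0.14, while the median over the 6685 genes was 0.01 and their median absolute ratio 0.09. Ckb at −0.15 (−0.60 to 0.30) and Ckmt1 at −0.96 (−4.43 to 1.84) had intervals that include 0. Under spike-in scaling Ckm and Ampd1 came to −0.0038 and −0.0077, so their sign is not settled, while Ckmt2, Slc6a8, Ak1 and Adssl1 stayed between 0.06 and 0.13. That scaling lowers the ratio of every gene, and so the median of all genes, by the same amount. Slow-fibre markers, a list also chosen with earlier results of these data known, were higher in library 2 in 6 of 7, with a median of 0.29. Their part in the ratios of Ckmt2 and Ak1 was not tested. An exact two-sided sign-flip test over 2 libraries cannot go below p = 0.5, so none was made.

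**Figure D5:**
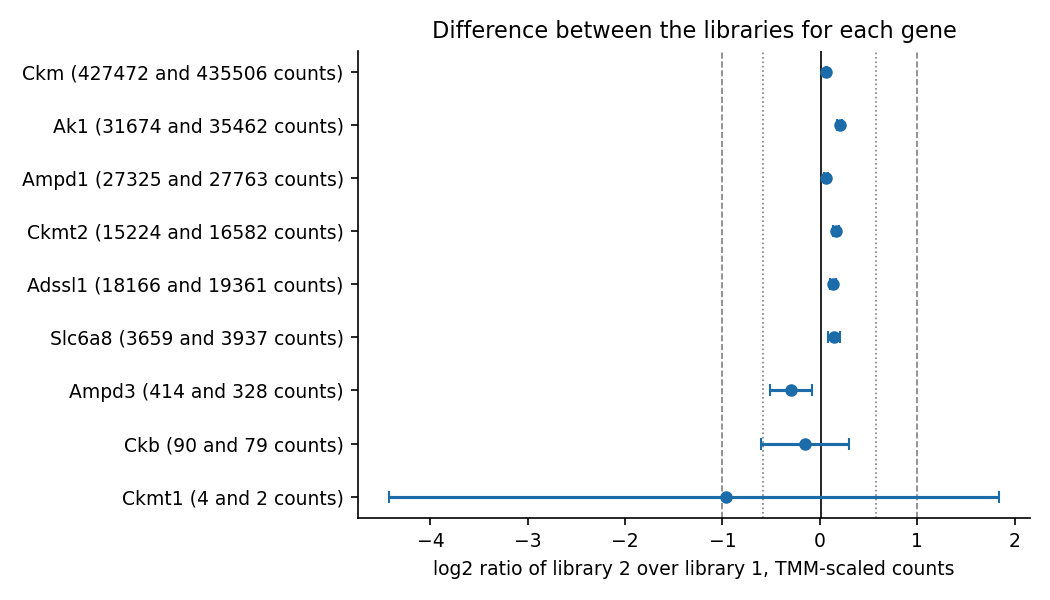
Log2 ratio of library 2 over library 1 for each gene from TMM-scaled counts, with exact binomial 95% intervals of counting error and the counts of each library beside the symbol; the solid line is the median of all genes tested, the dotted lines a 1.5-fold and the dashed lines a 2-fold ratio. The 6 genes above 5 TPM lie between 0.06 and 0.20 (under spike-in scaling Ckm and Ampd1 fall just below 0), and the interval widens as counts fall, to −4.43 to 1.84 for Ckmt1.

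The bases upstream of the start sites were read for 7 of the 9 genes from RefSeq promoters of GRCm38.p6. Motifs were searched on both strands of the 250 bases before each start: the E-box CANNTG, the TATA box TATAAA, the GC box GGGCGG, and the MEF2 and CArG motifs by name. Among 32841 promoters of that length, 66.2% held an E-box, 12.4% a TATA box, 32.7% a GC box, 2.92% a MEF2 match and 1.47% a CArG match. Ckm held 1 E-box and none of the others, Ckmt2 4 E-boxes and 1 GC box, and Adssl1 2 E-boxes and 2 GC boxes. Ak1 has 4 listed starts, with 3 E-boxes before that of Ak1-203 and 1 before that of Ak1-202. Ckb, at the low level, held 1 TATA box inside 1 MEF2 match. Ckmt1 held 1 TATA box before the start of Ckmt1-202 and no match before that of Ckmt1-201. Ampd3 held 3 E-boxes before the start of Ampd3-201, 1 CArG match before that of Ampd3-203 and 1 E-box before a start at position 110768622. Ckm and Ckb are printed as the cytosolic pair of the family, with the Ckm window up to the base before Ckm-203 and the Ckb window up to the base before its first annotated transcript, and with motif matches in capitals. The Ckm window is chr7:19410844-19411024 on the plus strand, which lies in an intron of Ckm-202, and the Ckb window chr12:111672339-111672588 on the minus strand. The Ckm search of 250 bases ran on to the RefSeq start at position 19411094, inside Ckm-203 and Ckm-201. The printed Ckm window of 181 bases leaves out the last searched bases, which held no match.
Ckm: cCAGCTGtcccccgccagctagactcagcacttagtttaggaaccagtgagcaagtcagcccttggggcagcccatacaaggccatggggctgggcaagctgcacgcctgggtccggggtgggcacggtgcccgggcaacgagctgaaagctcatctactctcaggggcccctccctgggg
Ckb: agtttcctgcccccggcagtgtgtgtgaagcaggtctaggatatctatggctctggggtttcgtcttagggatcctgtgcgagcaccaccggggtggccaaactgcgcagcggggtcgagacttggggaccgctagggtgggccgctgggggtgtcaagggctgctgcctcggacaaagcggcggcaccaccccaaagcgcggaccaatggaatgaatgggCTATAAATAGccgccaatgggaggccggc
A match describes letters in these windows and no more, and distant control regions were not read.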

How the data were processed

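Total RNA of 2 gastrocnemius samples was sequenced after ERCC spike-ins were added, from 300 ng of RNA per library and with a directional kit, per the labels. Reads were assigned to mm10 with GENCODE M21, per the deposited read-me, for the first quantifier through an alignment to transcripts and for the second from the reads; the programs are not given in the sources used here. Expected counts (first quantifier) and estimated counts (second) were deposited per entry and are not whole where reads are shared. TPM values were made by the authors over every entry of a table, including spike-ins. The percent of gene TPM per transcript is also in the deposited tables and was recomputed here. Posterior SDs of counts in the deposited tables were read but set no interval.

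Spike-ins held 0.479% and 0.504% of counts. Entries with a numeric identifier (26248) held 1 and 0 counts and were left out. A count of 0 allows up to 3 counts, 0.0843 and 0.0869 CPM. Intervals and floors cover counting error only. Counts rounded to whole numbers were scaled with TMM in edgeR 4.0.16 (R 4.3.3), and DESeq2 1.42.0 size factors were an alternative. The scaling and the log2 ratio from it were tested on simulated Poisson counts. Such counts hold counting error only, and the binomial intervals were not part of that test. A chi-square per degree of freedom of 18.6 over 15960 genes showed that the libraries are not copies. Reads of CAST alleles were assigned against mm10, and the effect was not tested. A planned identity between proteins was replaced by identity between coding bases (global alignment, Biopython 1.88), because proteins were not used here.

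The members and lists were chosen with earlier results of these data known. Named were the 9 members, genes of their families (1 of which is not reported here), the 3 highest genes of each pathway list, and the nearest nuclear protein-coding gene above and below each detected member. Alternatives were the second quantifier, posterior mean TPM, rescaled TPM, shares of counts, other scalings and thresholds, leaving out each library, and the length behind Ckm.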

Additional observations from a re-analysis of the deposited data

How the results depend on the processing

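Of 48 recomputed values of the summary results 31 stayed within the spread between libraries or within 1.5 times. The 17 that moved were all levels or shares. With 2 libraries, a level or share from 1 library alone always lies within 1 SD of the mean. Values with a library left out were therefore bound to stay, and the tally is no measure of stability for levels and shares. The level of Ckm was 17862 TPM in the second quantifier, 37274 when TPM was rescaled to nuclear protein-coding genes, 11055 over the length of the 8-exon chain, 13489.6 over that of Ckm-201 and 5795 over that of Ckm-203, and it ranged from 14267 to 16993 when either library was left out. The share of the 9 genes in nuclear protein-coding TPM was 4.63% in the second quantifier, 2.01% by counts and 3.15% with the 8-exon length. The share of Ckm in creatine kinases was 97.9%, 96.4% and 96.4% under the same settings. Counts gave Ak1 92.5%, Ampd1 98.1% and Adssl1 99.1% of their families, the second quantifier gave Ampd1 98.6% and Adssl1 99.3%, and posterior mean TPM gave Ampd1 98.6%. The number of genes detected was 8 in all settings but a threshold of 5 TPM, which gave 6, and the number apart was 0 in all settings run. Of 45 library ratios recomputed, 41 kept their sign; Ckm and Ampd1 changed it under spike-in scaling and Ckb and Ampd3 under TPM, where the median of all genes moves to 0.17. Spike-in scaling moves every log2 ratio by the same amount. TPM also divides by a length that can differ between libraries, 3405 and 2994 bases for Ampd3 and 1372 in both for Ckb. Why the libraries differ in spike-in counts, TPM totals and lengths was not tested. No paired analysis was possible because both libraries belong to 1 group. Each SD rests on 2 libraries, Ckmt1 and Ckb rest on few counts, and transcript shares of Ak1, Slc6a8, Ampd3, Ampd1 and Ckm moved by up to 47.7, 30.5, 14.7, 13.2 and 9.53 percentage points between the quantifiers.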
